A study of Mus musculus with 4 samples.

Results

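Venous endothelial cells line the venules and small veins of muscle. Here they were the 400 cells, of 18153 that passed the filter in 4 single-cell libraries, chosen by their own UMI counts of 18 marker genes. A barcode was kept as a cell with more than 200 genes detected and under 10% of its unique molecular identifiers (UMIs, 1 per captured mRNA) on mitochondrial genes. It was then called venous when it had a UMI of at least 3 of the 5 general endothelial genes Pecam1, Cdh5, Cldn5, Kdr and Egfl7 and of at least 3 of the 5 venous genes Selp, Ackr1, Vwf, Lrg1 and Vcam1. It could have at most 1 of the 5 arterial genes Gkn3, Sema3g, Gja5, Hey1 and Cytl1, and at most 1 of the 3 lymphatic genes Mmrn1, Prox1 and Lyve1. Since these counts chose the cells, the levels of those genes, and every contrast of these cells with other endothelial cells, are given as a description.

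Blood leaves the capillary bed through postcapillary venules, where leukocytes are slowed by selectins, stopped by integrin ligands and led across the wall. Endothelium there stores P-selectin and von Willebrand factor in Weibel-Palade bodies, displays chemokines on the receptor Ackr1, and opens its junctions to histamine and related mediators. The transcription factor Nr2f2 (COUP-TFII) holds veins in their identity by repressing Notch signalling, which marks arteries.

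The cells came from male mice aged 2 months, and the muscles used were the tibialis anterior together with the gastrocnemius. All mice carried the S100GFP-tg reporter, in which GFP under the S100B promoter labels Schwann cells. Mice were wild type (WT) or lacked Sod1, the cytosolic Cu/Zn superoxide dismutase, in the whole body (Sod1KO), so that no loss of Sod1 was limited to endothelium. Muscles of 4 mice per genotype were pooled, and live (PI-) cells were sorted into GFP+ and GFP- fractions, each of which gave 1 library. The 4 libraries were therefore WT GFP+, WT GFP-, Sod1KO GFP+ and Sod1KO GFP-, and 4 values given together below keep this order. With 1 library per group no difference has a replicate check and no p-value is given. The 95% intervals are exact Poisson limits for a level, Clopper-Pearson limits for a share and conditional binomial limits for a ratio, and they cover counting error only. Levels are UMIs of a gene per 1000000 UMIs (CPM) summed over the cells of a class in a library, and they are compared within a gene, not between genes.

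The libraries held 55, 92, 107 and 146 venous endothelial cells, with median totals of 20792, 8565, 14400 and 16656.5 UMIs per cell and 1120466, 924649, 1941072 and 2571083 UMIs in all. They made up 1.15% (0.870 to 1.50), 5.53% (4.48 to 6.73), 1.70% (1.40 to 2.05) and 2.69% (2.27 to 3.15) of the 4767, 1665, 6291 and 5430 filtered cells, shares that the sort sets in part. Of the 626, 1320, 647 and 3308 cells with at least 3 general endothelial genes, they were 8.79%, 6.97%, 16.5% and 4.41%, so the order of the genotypes differed between the GFP+ and the GFP- libraries. The order in the GFP- libraries turned when only members with at most 2 of 5 capillary genes, described next, were counted, at 0.721% of WT GFP- and 1.12% of Sod1KO GFP- filtered cells, with 0.797% and 1.30% in the GFP+ libraries. The limits on arterial and lymphatic genes removed 3, 7, 4 and 15 endothelial cells that had 3 or more venous genes. The reporter itself was not among the 32285 genes counted, so how endothelial cells entered the GFP+ gate was not tested. The libraries shared 42 barcodes over all pairs, none of them a venous endothelial cell.

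The members of the WT GFP- library stood apart. Of 5 capillary genes that the choice did not use (Gpihbp1, which anchors lipoprotein lipase, Car4, Rgcc, Timp4 and Tcf15), 4 or 5 were detected in 78 of its 92 members, against 11 of 55, 11 of 107 and 53 of 146 in the other libraries, as the plot of members by capillary genes shows. At least 3 of 8 pericyte genes were found in 79 of these 92 cells, against 21 of 55, 47 of 107 and 51 of 146, and at least 3 of 6 tenocyte genes in 34, against 2, 5 and 3. At least 3 of 5 erythroid genes were found in 26 of the 92, against 1, 1 and 4. The 8 fibroblast genes summed to 17557 CPM in the members of the WT GFP- library, against 3624, 6760 and 4687 CPM. The part of these transcripts in the results below was not tested, so main values are also given for the 38, 12, 82 and 61 members with at most 2 capillary genes detected, a split chosen after the data were seen. A doublet caller marked 1, 1, 6 and 8 members.

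**Figure D1:**
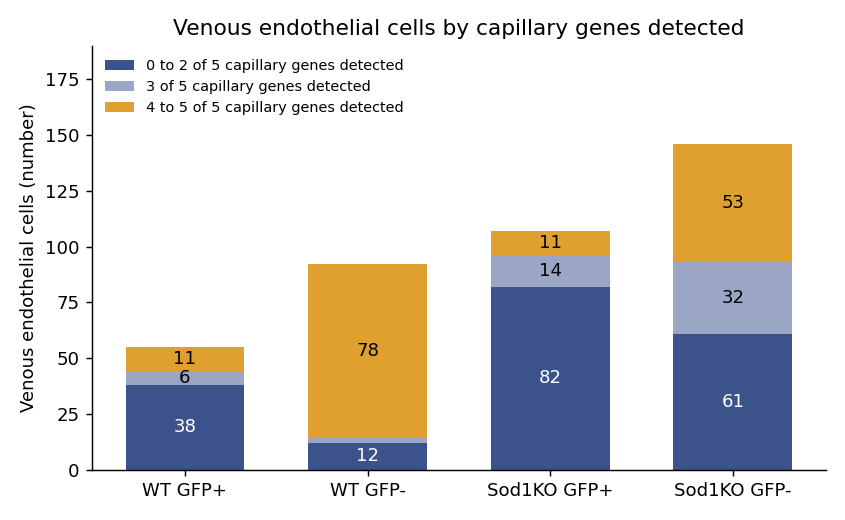
Number of venous endothelial cells in each library (vertical axis), stacked by how many of 5 capillary genes not used in the choice were detected in the cell. Cells with 4 to 5 capillary genes were 78 of 92 in the WT GFP- library, where only 2 cells had 3, and 11 of 55, 11 of 107 and 53 of 146 in the other 3 libraries.

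Among the other marker lists, the satellite cell genes Pax7, Myf5 and Myod1 were at 0 UMIs in the members of all 4 libraries. Chodl, the other satellite gene outside the choice, was at 0.892, 1.08, 32.5 and 0.389 CPM. The 7 lymphocyte genes summed to 6.25 to 10.9 CPM. The macrophage genes Ptprc, C1qa, C1qb and Adgre1 were at 0 in the WT GFP+ members, and 8 macrophage genes summed to 40.7 to 119 CPM over the libraries. At least 2 of 7 smooth muscle genes, in contrast, were seen in 87.3%, 87.0%, 86.9% and 78.1% of members. At least 2 of 8 fibroblast genes were seen in 63.6%, 78.3%, 80.4% and 50.7% of members. For 8 Schwann genes the same limit was met by 29.1%, 4.35%, 21.5% and 5.48% of members. For 5 perineurial genes it was met by 32.7%, 4.35%, 26.2% and 19.9%. Schwann cells should lack venous genes. They were taken here as cells with at least 4 of 8 Schwann genes and fewer than 3 general endothelial genes. None of them could thus be a member, and Schwann barcodes with more endothelial genes were not counted. Of 1947 and 2155 such Schwann cells in the WT GFP+ and Sod1KO GFP+ libraries, 1 in each had 3 or more venous genes. Single venous genes were seen in them more often, with an Ackr1 UMI in 12.1% and 8.17% of those Schwann cells and a Vwf UMI in 14.5% and 8.58%, at median totals of 8002 and 9923 UMIs. In those Schwann cells Selp was found in 0.411% and 0.371%. With every cell thinned to 3000 UMIs, Ackr1 was in 47.3%, 13.0%, 52.9% and 24.6% of members and in 0, 0.434%, 0.345% and 0.105% of capillary endothelial cells.

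The 5 venous genes that chose the cells varied among the libraries. Selp, which encodes P-selectin, was found in 52 of 55, 75 of 92, 100 of 107 and 106 of 146 members, at 1883, 629, 1168 and 716 CPM, against 0.345, 2.89, 0.193 and 0.122 CPM in capillary endothelial cells. Ackr1, the atypical chemokine receptor of venules, was found in 34, 22, 83 and 53 members, at 458, 94.1, 411 and 206 CPM. Both were lowest by share or by level in a GFP- library. Among members with at most 2 capillary genes the levels came closer together: Selp was at 2516, 2478, 1502 and 1308 CPM and Ackr1 at 583, 603, 544 and 386 CPM. Vwf, the platelet-binding clotting protein, was at 585, 314, 626 and 768 CPM. Lrg1, a secreted glycoprotein that modulates TGF-beta signalling, was at 882, 273, 747 and 521 CPM, and Vcam1, the ligand of leukocyte integrin alpha 4 beta 1, at 216, 215, 239 and 266 CPM.

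All 5 venous genes were detected in 25, 7, 64 and 41 members, 4 in 18, 32, 30 and 43, and 3, the lowest number allowed, in 12, 53, 13 and 62. Members with exactly 3 had Selp at 908, 308, 44.2 and 98.6 CPM, and endothelial cells just outside the limit, with exactly 2, had it at 88.2, 65.9, 8.64 and 13.7 CPM. Members with all 5 had 2752, 2603, 1737 and 1697 CPM. Selp is itself 1 of the 5 genes counted, so its level is tied to this number by the rule.

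Of the general endothelial genes, the junction protein Pecam1 was at 796, 677, 884 and 1050.5 CPM. Cldn5, the tight junction claudin, was at 75.9, 441, 117 and 293 CPM and was seen in 14 of 55, 74 of 92, 31 of 107 and 81 of 146 members. Among members with at most 2 capillary genes Cldn5 was at 16.1, 16.5, 40.5 and 81.9 CPM, below the level over all members in each library, while Selp and Ackr1 were above it. The capillary endothelial cells used for comparison, 333, 777, 300 and 1979 in number, had 3 or more general endothelial genes, 3 or more capillary genes and at most 1 venous, arterial or lymphatic gene each. The 67, 134, 53 and 366 arterial endothelial cells had 3 or more arterial genes with at most 1 venous and 1 lymphatic gene.

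The label was checked against venous genes that the choice did not use. Nr2f2 was at 548 (505 to 593), 456 (414 to 502), 452 (422 to 483) and 459 (434 to 486) CPM in the venous cells and at 251, 254, 185 and 176 CPM in capillary cells. Each venous level lay above each capillary level, with log2 ratios within a library of 1.13, 0.84, 1.29 and 1.39. Ephb4, the venous receptor of arterial ephrin-B2, was at 93.7, 71.4, 97.9 and 106 CPM, with log2 ratios of 0.77 (0.43 to 1.09), 0.13 (-0.26 to 0.49), 0.80 (0.53 to 1.07) and 0.67 (0.49 to 0.86); the interval in the WT GFP- library included 0. In members with at most 2 capillary genes the Nr2f2 ratios were 1.16, 0.89, 1.45 and 1.74. Of 16 venous identity genes, 9 were more than 2-fold higher in these members than in capillary cells in all 4 libraries. None was more than 2-fold lower in all 4. Flt4 was nevertheless at 8.79, 8.26, 15.0 and 15.9 CPM in these members, below 29.0, 32.7, 27.7 and 30.9 CPM in capillary cells. The apelin receptor Aplnr was at 105.5, 24.8, 122 and 96.6 CPM against 92.7, 136, 131 and 150 CPM.

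The selectin genes lie side by side on chromosome 1, with the start sites of Sele and Selp 67030 bases apart, and both were all but absent from capillary cells. The 250 bases before the RefSeq start sites (build GRCm38.p6) of these genes, of Ackr1 and of the cytokine gene Il6 are printed because these 4 genes of leukocyte traffic were far higher in the venous than in the capillary cells and their promoters can be set side by side. Each runs 5′ to 3′ on the gene's own strand and ends at the base before the start site. Capitals mark letters AGGTCA, the half-site that nuclear receptors of the Nr2f2 family bind, or their reverse complement TGACCT, and in Il6 a match to the NF-kappaB consensus; both strands were searched and the 2 motifs did not overlap.
Sele, chr1:164047984-164048233, plus strand: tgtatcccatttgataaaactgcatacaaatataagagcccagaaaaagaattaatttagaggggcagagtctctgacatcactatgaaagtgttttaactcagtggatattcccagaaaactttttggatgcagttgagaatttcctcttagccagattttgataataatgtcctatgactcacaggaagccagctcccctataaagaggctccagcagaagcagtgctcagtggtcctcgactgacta
Selp, chr1:164115014-164115263, plus strand: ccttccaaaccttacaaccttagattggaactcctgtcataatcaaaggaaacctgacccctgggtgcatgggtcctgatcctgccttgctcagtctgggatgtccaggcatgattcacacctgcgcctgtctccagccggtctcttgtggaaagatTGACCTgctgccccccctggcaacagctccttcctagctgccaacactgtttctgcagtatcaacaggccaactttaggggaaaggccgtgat
Ackr1, chr1:173333504-173333753, minus strand: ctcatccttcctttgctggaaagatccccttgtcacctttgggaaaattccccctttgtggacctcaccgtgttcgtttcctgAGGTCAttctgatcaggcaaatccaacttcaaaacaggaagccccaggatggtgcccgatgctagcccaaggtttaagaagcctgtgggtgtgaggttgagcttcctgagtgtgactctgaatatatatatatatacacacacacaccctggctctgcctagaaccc
Il6, chr5:30012864-30013113, plus strand: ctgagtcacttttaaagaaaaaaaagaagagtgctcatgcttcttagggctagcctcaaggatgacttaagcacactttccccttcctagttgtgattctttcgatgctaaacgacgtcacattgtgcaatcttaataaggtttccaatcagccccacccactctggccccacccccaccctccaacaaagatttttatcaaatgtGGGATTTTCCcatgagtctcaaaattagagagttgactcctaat
The half-site letters occurred in the windows of Selp and Ackr1 and the NF-kappaB consensus in that of Il6, and the Sele window held no exact match to either. The NF-kappaB consensus searched was GGGRNWYYCC, where R is A or G, N any base, W A or T and Y C or T. Sites that differ from it by a letter were not counted, so no match does not mean no site. Over all 32851 mouse promoters of the table the half-site was present in 14.0% and the NF-kappaB consensus in 3.90%. Among the 20 genes named highest over capillary cells, 14 had a promoter in the table, of which F5 and Tmem252 held the half-site and Il6 the NF-kappaB consensus. A match describes letters in this window and no binding was measured.

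Adhesion molecules of leukocyte capture were led by Sele, which encodes E-selectin. Sele had 361, 107, 401 and 206 UMIs in the venous cells, or 322 (289.8 to 357), 116 (94.8 to 139.8), 207 (187 to 228) and 80.1 (69.6 to 91.8) CPM, against 0, 2, 1 and 1 UMIs in all capillary cells of the same libraries and 0, 0, 0 and 1 in arterial cells. The log2 ratio over capillary cells was at least 9.28 in the WT GFP+ library, where capillary cells had no UMI and were set to a floor of 3, and 9.23 (7.34 to 12.29), 10.06 (7.57 to 15.37) and 11.36 (8.87 to 16.67) in the others. Sele was not shared by all members: it was found in 38, 12, 52 and 48 of them, 150 of 400, and 4, 2, 9 and 8 cells together held 50% of its UMIs. After thinning every cell to 3000 UMIs, it remained in 38.2%, 8.70%, 29.8% and 16.2% of members and in none of the capillary cells, of which 309, 691, 290 and 1904 were deep enough.

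Icam1, the ligand of leukocyte beta 2 integrins, was at 333, 135, 259 and 208 CPM, with log2 ratios over capillary cells of 2.23, 1.19, 1.55 and 1.03. In the 14 adhesion genes tested outside the choice, Sele and Icam1 were more than 2-fold higher than in capillary cells in all 4 libraries and Jam3, a junctional adhesion molecule, was more than 2-fold lower. By the same criterion 1.72% of all 14328 genes tested were higher and 1.08% lower. The addressins of lymph node venules were not detectable at this depth: Madcam1 and Chst4 had no UMI in any member, and Glycam1 had 1 UMI, in the Sod1KO GFP+ library.

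**Figure D2:**
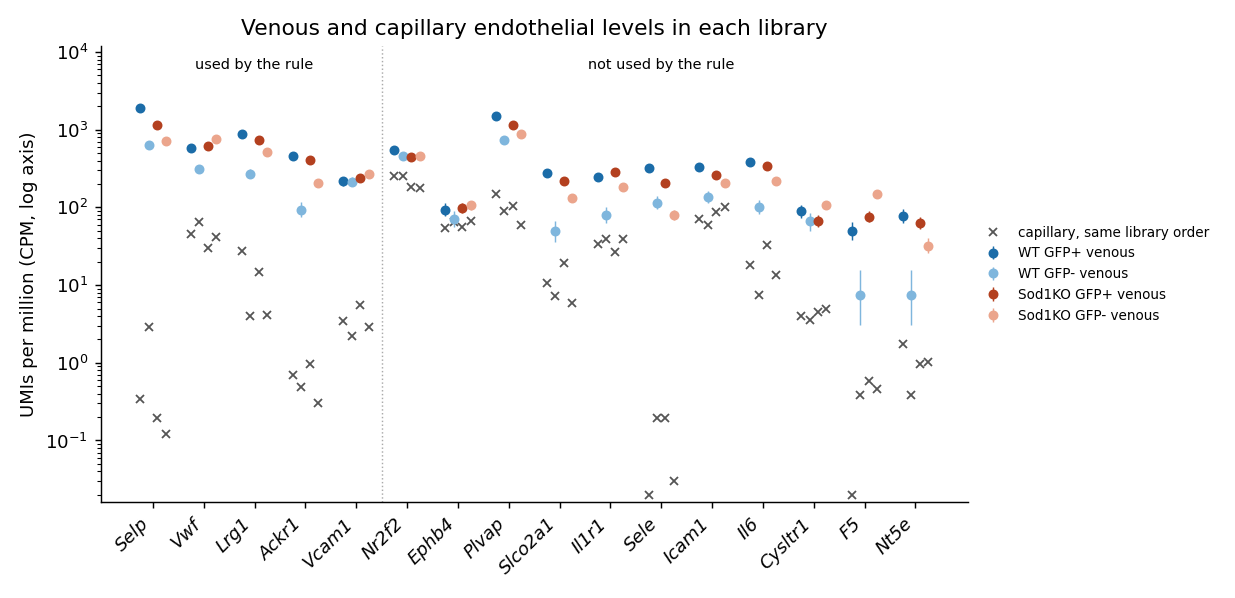
Level in CPM (log axis) of 5 venous genes used to choose the cells and 11 genes not used, in the venous endothelial cells of each library (points, with 95% Poisson intervals) and in capillary endothelial cells of the same libraries (crosses, in the same order from left to right). Capillary levels of 0 are drawn at the bottom of the axis (Sele and F5, WT GFP+); all 4 venous levels of Plvap, Slco2a1, Sele, Il6 and Nt5e lie above all 4 capillary levels, and the WT GFP- point is the lowest venous point for Slco2a1, Il1r1, Icam1, Il6, F5 and Nt5e.

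Of 19 cytokine and chemokine genes, 6 were more than 2-fold higher than in capillary cells in all 4 libraries and none was lower. Il6, the acute-phase cytokine, was at 385 (349 to 423), 101 (81.2 to 123), 346 (321 to 373) and 221 (203 to 239.9) CPM, against 18.3, 7.53, 32.5 and 13.3 CPM, and was found in 38, 42, 71 and 74 members. Its lowest venous level, in the WT GFP- library, was still above the highest capillary level. Il6st, the signal-transducing gp130 subunit of the IL-6 receptor, was at 756, 459.6, 723 and 700.5 CPM, with log2 ratios of 2.18, 2.15, 2.44 and 3.03. Csf3, the granulocyte growth factor G-CSF, had 71, 11, 106 and 18 UMIs against 0, 3, 0 and 6 in capillary cells, in only 13, 5, 21 and 7 members. The eosinophil chemokine Ccl11 was at 99.1, 236, 199 and 115 CPM with log2 ratios of 1.25 to 2.98, the neutrophil chemokine Cxcl1 of 1.06 to 1.81, and the interferon-induced T cell chemokine Cxcl10 of 2.04 to 2.83. Fibroblast genes summed to 3624, 17557, 6760 and 4687 CPM in the same cells, the same order over the libraries as Ccl11. The part of fibroblast transcripts in the level of Ccl11 was not tested. The median log2 ratio of the 19 genes lay between 0.71 and 1.49 over the libraries, where that of all genes tested lay between -0.21 and -0.08.

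Receptors that read inflammatory mediators came next. Hrh1, the histamine receptor that opens venules, was at 50.0, 11.9, 33.0 and 24.9 CPM, against 1.55, 2.22, 2.51 and 1.98 CPM in capillary cells. Bdkrb2, the bradykinin receptor, and Ptafr, the receptor of platelet-activating factor, also passed 2-fold in all 4 libraries, with log2 ratios of 1.21 to 3.23 and 1.41 to 3.26; these were 3 of 12 genes of the list, and none was lower. Bdkrb2 had 20, 6, 25 and 59 UMIs and was at a lower level than in arterial cells, with log2 ratios of -2.42 to -0.87. Cysltr1, the receptor of cysteinyl leukotrienes, was at 89.2, 66.0, 67.5 and 107 CPM in 217 of 400 members, with log2 ratios of 3.92 to 4.49 over capillary cells and 5 UMIs or fewer in the arterial cells of each library. Il1r1, the interleukin-1 receptor, was at 245, 81.1, 284 and 186 CPM with ratios of 2.85, 1.06, 3.39 and 2.23. Csf2rb2, a beta subunit shared by receptors of the IL-3 family, was at 88.4, 17.3, 58.2 and 40.5 CPM with ratios of 4.15 to 5.79, though its near-identical copy Csf2rb can take part of its reads.

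Plvap, which forms the diaphragms of fenestrae and caveolae, was found in 378 of 400 members. Its level was 1510.1 (1439 to 1584), 732 (678 to 789), 1150.4 (1103 to 1199) and 873 (837 to 910.1) CPM, against 149, 89.3, 104 and 59.2 CPM in capillary cells, which gave log2 ratios of 3.35, 3.03, 3.47 and 3.88. Of 12 junction and barrier genes Plvap was the only one past 2-fold in all 4 libraries. Slco2a1, the transporter that takes up prostaglandins, was at 278, 49.7, 222 and 132 CPM against 10.7, 7.14, 19.5 and 5.97 CPM. Its level in the WT GFP- library was the lowest of the 4 by over 2-fold. Ptgs1, the constitutive cyclooxygenase that makes prostaglandin precursors, was at 145, 109, 145 and 177 CPM with ratios of 1.76 to 2.78, and it was the 1 of 13 prostaglandin and nitric oxide genes past 2-fold.

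Genes of haemostasis included a clotting factor and several of its brakes. F5, which encodes coagulation factor V, had 56, 7, 148 and 383 UMIs, or 50.0, 7.57, 76.2 and 149 CPM, against 0, 4, 3 and 15 UMIs in capillary cells. It was found in 13, 6, 33 and 48 members, 100 of 400, and 2, 3, 4 and 6 cells together held 50% of its UMIs. Procr, the endothelial receptor of anticoagulant protein C, was at 226, 202, 223 and 190.2 CPM with log2 ratios over capillary cells of 3.05, 2.32, 3.54 and 2.82. Entpd1 (CD39), which breaks down ATP and ADP, had ratios of 1.28 to 2.29, and the vasoconstrictor Edn1 of 1.37 to 2.92. These last 3 were the genes higher of 20 in the list, to which F5 did not belong, and none was lower. Nt5e (CD73), which turns AMP into adenosine, was at 78.5, 7.57, 63.4 and 32.3 CPM against 1.73, 0.386, 0.967 and 1.04 CPM. Hs3st1, the sulfotransferase that gives heparan sulfate its antithrombin-binding motif, was at 96.4, 61.6, 110.2 and 103 CPM with ratios of 3.41 to 4.22. Edn1 was lower than in arterial cells, with ratios of -2.83 to -1.41.

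The other genes that ranked highest over capillary cells by the lower bound of their ratio had other roles. Masp1, a protease of the lectin pathway of complement, had 27, 19, 50 and 102 UMIs against 0, 2, 1 and 15. Myrip, which ties Weibel-Palade bodies to actin, was at 67.8, 22.7, 71.1 and 55.6 CPM against 1.55, 0.675, 0.967 and 1.40 CPM. Chp2, a calcineurin-like cofactor of sodium-proton exchangers, was at 228, 188, 193 and 184 CPM, a narrow range over the libraries. Clu, a secreted chaperone that restrains complement, was at 315, 107, 297 and 120.2 CPM, with ratios of 5.11, 2.71, 3.17 and 2.69 over capillary cells and of -1.55 to -1.17 over arterial cells. The choline phosphodiesterase Enpp6 had ratios over capillary cells of 3.83 to 7.35, the protease inhibitor Spint2 of 2.72 to 3.39 and the disulfide isomerase Pdia5 of 2.73 to 3.65. Tmem252 and Fam174b, membrane proteins, had ratios of 3.10 to 3.82 and 3.18 to 5.95.

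Of 16 venous identity genes outside the choice, 8 were more than 2-fold higher than in capillary cells in all 4 libraries and none was lower: Plvap, Slco2a1, Il1r1, Tmem252, Csf2rb, Bgn, Tll1 and Clu. Their median log2 ratio over the list lay between 1.09 and 1.81. In members with at most 2 capillary genes 3.58% of 14279 genes were higher and 1.62% lower, and 221 of the 246 genes higher in all members were among them. Without the WT GFP- library 381 genes in place of 246 were higher and 460 in place of 155 lower. A gene had to pass in every library used, so leaving out any library tends to raise these counts. No other library was left out for comparison.

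Genes lower than in capillary cells were named by the same rule. Slc1a1, a glutamate transporter, had 0, 10, 5 and 20 UMIs. The endothelin receptor Ednrb was at 11.6, 86.5, 31.4 and 49.4 CPM against 204, 242, 168 and 177 CPM, highest of the venous values in the WT GFP- library. Nos2, the inducible nitric oxide synthase, had 2, 14, 11 and 21 UMIs, or 1.78, 15.1, 5.67 and 8.17 CPM, against 43.0, 54.2, 46.0 and 51.2 CPM in capillary cells. The log2 ratios of Cdh23 (a cadherin) were -3.61 to -1.63 and those of Opcml (a cell adhesion protein) -3.22 to -1.44. Ccdc85a, Mmd and Gm12002 had ratios of -2.83 to -1.79, -3.15 to -1.68 and -4.32 to -1.42. The alpha-globin gene Hba-a2, whose reads cannot be fully told apart from its copy Hba-a1, had ratios of -8.19 to -3.00; capillary cells had up to 1699 CPM of it, and the erythroid share of these values was not tested.

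Against arterial endothelial cells 2.55% of 11478 genes were more than 2-fold higher in all 4 libraries and 2.6% lower, or 293 and 299 genes. Without the WT GFP- library these became 483 and 555, a rise that a criterion over fewer libraries favours by itself. The venous identity list had 12 of 16 genes higher, among them Nr2f2 with log2 ratios of 1.28 to 1.63 and Aplnr, the apelin receptor, at 112, 137, 136 and 185 CPM against 2.08, 16.5, 0.893 and 10.2 CPM, and 1 lower, Clu. The arterial and Notch list had none of 17 higher and 9 lower, namely the ligands Dll4, Jag1 and Jag2, the receptor Notch4, and Efnb2, Unc5b, Gja4, Bmx and Fbln5. Against capillary cells that list was split, with the Notch ligand Dll1 and the kinase Bmx higher and Efnb2 and Cxcr4 lower. Bmx was thus intermediate, at 8.92, 13.0, 9.27 and 15.9 CPM against 0.173, 1.64, 0.774 and 0.305 CPM in capillary and 80.4, 63.5, 109.8 and 47.7 CPM in arterial cells.

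The chemokine and cytokine list had 10 of 17 genes higher than in arterial cells and none lower. Besides Sele, Plvap, Cysltr1 and Masp1, the genes named highest over arterial cells were Ccl11, with 111, 218, 387 and 295 venous and 2, 15, 1 and 12 arterial UMIs; Lhx6, a LIM homeobox factor, at 49.1, 45.4, 68.5 and 85.6 CPM with 0, 0, 0 and 12 arterial UMIs; and Tll1, a tolloid-like metalloprotease that activates BMPs, at 195, 50.8, 191 and 168 CPM with 6, 4, 0 and 22 arterial UMIs. Fmo2, a flavin monooxygenase, was at 263, 448, 166 and 348 CPM against 13.2, 36.6, 2.68 and 13.1 CPM, and Ctnnal1, an alpha-catenin relative, had log2 ratios of 3.82 to 4.41. The growth factor Igf1 was at 104, 154, 94.3 and 114 CPM in venous, 2.08, 9.16, 5.36 and 4.11 CPM in arterial and 86.0, 33.7, 76.8 and 46.7 CPM in capillary cells, and each venous level was above each capillary level. Genes of other cell types were also higher than in arterial cells in all 4 libraries, namely 4 of 7 fibroblast genes (Dcn, Col1a1, Col3a1 and Dpt) and 4 of 5 tenocyte genes (Tnmd, Scx, Thbs4 and Comp). The 6 tenocyte genes of the list summed to 532, 1499, 1057 and 511 CPM in the venous cells, and the part of such transcripts in the arterial comparison was not tested.

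The venous cells were not uniform. Levels fell from cells with 0 to 2 capillary genes to those with 4 or 5 for Ackr1, Selp, Sele, Plvap and Slco2a1 in all 4 libraries, as the panels by capillary genes show. Plvap was at 1805, 2140, 1397 and 1312 CPM in the first and 859, 497, 400.5 and 456 CPM in the second, and at 149, 89.3, 104 and 59.2 CPM in the capillary class. Nr2f2 was at 560, 471, 506 and 586 CPM against 438, 457, 296 and 357 CPM, so that in the WT GFP- library the 2 groups of members did not differ beyond counting error in Nr2f2. Gpihbp1 ran the other way by construction, at 103, 74.3, 137 and 229 CPM against 578, 1085, 836 and 920.0 CPM. Aplnr, a gene of the venous identity list that set neither the choice nor the split, also rose. It was at 105.5, 24.8, 122 and 96.6 CPM against 157, 155, 214 and 252 CPM. Ephb4 was at 103, 66.1, 106 and 120 CPM against 61.6, 71.3, 101 and 88.7 CPM, with no fall in the WT GFP- library. Rgs5, a pericyte gene, was at 1182, 1140, 1051 and 1311 CPM in the first and 1506, 3956, 2592 and 2358 CPM in the second. The groups were set by detection, which depends on depth. Median totals were 16844, 8618, 13357 and 12551 UMIs in cells with 0 to 2 capillary genes and 28333, 8565, 22912 and 19649 in those with 4 or 5. With cells thinned to 5000 UMIs and chosen anew, 33, 53, 76 and 82 were members. Of these, 0, 37, 3 and 7 had 4 or 5 capillary genes. The part of depth in this split was not tested. Whether cells with 4 or 5 capillary genes are single cells of the capillary-venule boundary or hold RNA of several cells was not tested.

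**Figure D3:**
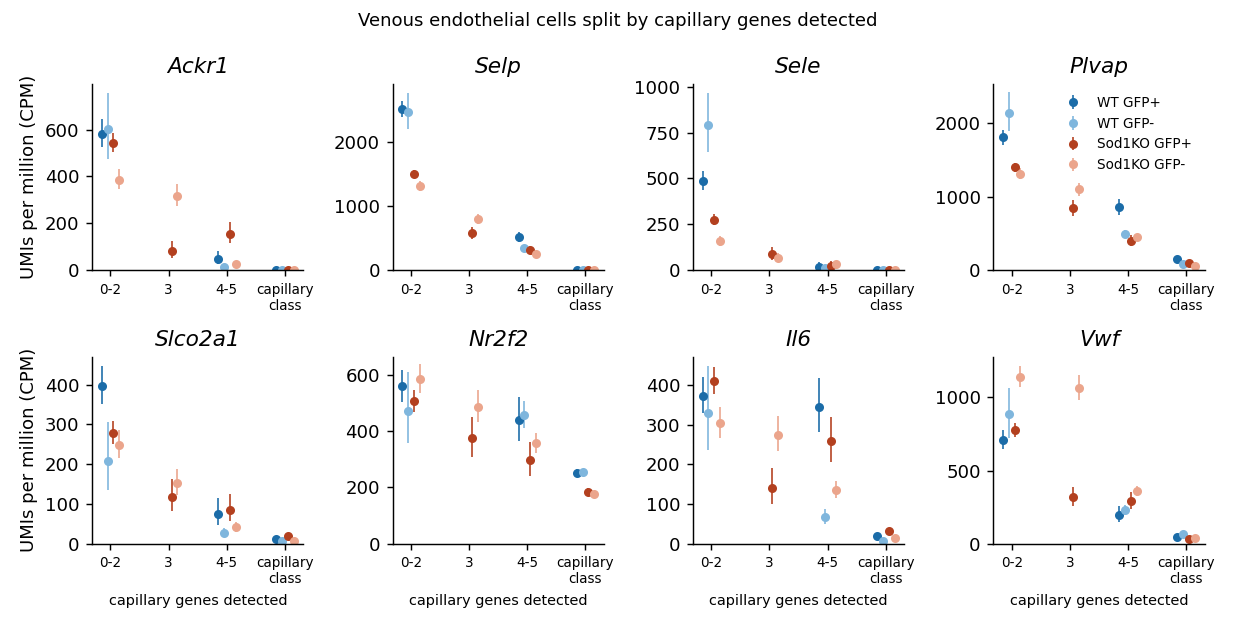
Level in CPM of 8 genes in venous endothelial cells split by how many of 5 capillary genes were detected (0 to 2, 3, or 4 to 5) and in the capillary endothelial class; colours are the 4 libraries and bars are 95% Poisson intervals. Points for 3 capillary genes are left out in both WT libraries, which had 6 and 2 such cells; Ackr1, Selp, Sele, Plvap and Slco2a1 fall from left to right between the outer venous groups in every library, and Nr2f2 in the WT GFP- library does not.

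Members with and without an Ackr1 UMI numbered 34 and 21, 22 and 70, 83 and 24, and 53 and 93. Selp was at 2412, 1277, 1572 and 1466 CPM in those with Ackr1 and at 1025, 425, 179 and 312 CPM in those without. Sele was at 450.1, 420, 281 and 140.1 CPM with Ackr1 and at 115, 19.9, 24.9 and 47.9 CPM without. Csf3 had 66, 10, 106 and 18 UMIs in the cells with Ackr1 and 5, 1, 0 and 0 in those without. Il6 was less divided than Sele in each library, at 498, 198, 389 and 334 CPM against 201, 69.7, 241 and 160.3 CPM. Among these cells, 4 or 5 capillary genes were detected in 3, 10, 5 and 5 cells with Ackr1 and in 8, 68, 6 and 48 cells without, so the splits by Ackr1 and by capillary genes overlapped.

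Between genotypes, Sod1KO over WT within a sort, few genes of the venous cells differed past 2-fold in the same direction in both the GFP+ and the GFP- libraries. These were 62 higher (0.735% of 8436 genes with 20 or more UMIs in the higher library of each sort) and 18 lower (0.213%). Within 1 sort the shares past 2-fold were larger, 4.12% higher and 1.26% lower in the GFP+ libraries and 10.2% and 3.48% in the GFP- libraries, where the WT members were the 92 that stood apart. Among members with at most 2 capillary genes, 0.807% of 5579 genes were higher and 0.143% lower in both sorts, with 4.99% and 1.07% in the GFP+ and 15.6% and 3.98% in the GFP- libraries alone. Sod1 itself was at 122, 134, 124 and 132 CPM, with log2 ratios of 0.02 and -0.02. UMIs come from transcript ends, and the part of Sod1 that the deletion removes was not stated, so these counts do not check the deletion. Why the Sod1 levels did not differ was not tested. Of the 5 venous genes that chose the cells, Selp had ratios of -0.69 and 0.19 and Vwf of 0.10 and 1.29.

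Among the genes named higher in Sod1KO, Cx3cr1, the receptor of the membrane-bound chemokine fractalkine, was at 22.3, 24.9, 56.2 and 81.7 CPM. The log2 ratio was 1.33 (0.69 to 2.02) in the GFP+ libraries and 1.72 (1.09 to 2.40) in the GFP- libraries, and both Sod1KO levels lay above both WT levels. It was found in 17, 11, 41 and 78 members, and among members with at most 2 capillary genes the ratios were 1.31 and 1.35. Cx3cr1 is also a macrophage gene, and 8 macrophage genes summed to 53.5, 119, 40.7 and 49.8 CPM in these cells. Their part in the ratio of Cx3cr1 was not tested. Cx3cr1 was also higher in Sod1KO in each sort in capillary cells, at 25.4, 16.1, 45.1 and 48.2 CPM. In all cells that were not members it was at 17.8, 16.5, 36.7 and 48.0 CPM, so its rise was not limited to the venous cells. Olfr1033, annotated as an olfactory receptor gene, was at 27.7, 9.73, 103 and 64.2 CPM with ratios of 1.89 (1.34 to 2.49) in the GFP+ libraries and 2.72 (1.76 to 3.88) in the GFP- libraries. In the WT GFP- library it rested on 9 UMIs, and among members with at most 2 capillary genes the ratios were 2.53 and 1.22.

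Ankrd37, a hypoxia-inducible gene, was at 12.5, 23.8, 41.2 and 56.0 CPM with ratios of 1.72 (0.89 to 2.66) in the GFP+ libraries and 1.24 (0.58 to 1.95) in the GFP- libraries. Ano2, a calcium-activated chloride channel, was at 17.0, 6.49, 43.8 and 32.7 CPM with ratios of 1.37 and 2.33, and at 1.55, 1.35, 1.16 and 2.52 CPM in all other cells. Klf12, a transcriptional repressor, had ratios of 1.15 and 1.64, the histone deacetylase Hdac9 of 1.11 and 1.54 and the heparan sulfate proteoglycan Gpc6 of 1.06 and 1.17. Neat1, the nuclear paraspeckle RNA, was at 136, 54.1, 256 and 177 CPM with ratios of 0.91 and 1.71, under 2-fold in the GFP+ libraries. For these genes, and for Cx3cr1 and Olfr1033, the sign held in both sorts among members with at most 2 capillary genes, although in the GFP- libraries, with 12 such WT cells, the intervals of Cx3cr1, Ankrd37, Ano2, Hdac9 and Gpc6 included 0. Neat1 was also higher in Sod1KO in capillary cells, at 129, 82.0, 298 and 303 CPM, and in all cells that were not members, at 265, 107, 425 and 372 CPM. In capillary cells Klf12 and Hdac9 were likewise higher in Sod1KO in each sort, while Olfr1033 was lower, at 14.3, 5.21, 6.77 and 3.48 CPM. Gpc6 was at 81.0, 47.1, 92.4 and 59.7 CPM in capillary cells, a smaller rise in GFP+ than in the venous cells. Ankrd37 was at 13.1, 14.5, 15.1 and 24.5 CPM there, close between genotypes in the GFP+ libraries, with 76 and 78 UMIs. Nts, which encodes neurotensin, Clstn2, a synaptic calsyntenin, and Glis3, a zinc finger factor, had WT counts too low for a firm size. Nts had 0, 5, 25 and 85 UMIs and ratios of at least 2.27 in the GFP+ libraries and 2.61 in the GFP- libraries, where it turned to -2.76 among members with at most 2 capillary genes. Clstn2 had 7, 0, 48 and 54 UMIs and ratios of 1.98 and at least 2.69. Glis3 had 13, 1, 62 and 35 UMIs and ratios of 1.46 (0.58 to 2.45) in the GFP+ libraries and 3.65 (1.08 to 9.0) in the GFP- libraries. Among members with at most 2 capillary genes both had no UMI in the WT GFP- library, and the lower bounds there, -0.53 and -0.88, left the sign undetermined.

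Stmn1, which destabilises microtubules and is high in dividing cells, was at 17.9, 20.5, 61.8 and 60.7 CPM with ratios of 1.79 (1.10 to 2.55) in the GFP+ libraries and 1.56 (0.87 to 2.33) in the GFP- libraries. In capillary cells it was at 98.8, 59.1, 116 and 99.0 CPM. The richest member held 30.0% of its UMIs in the Sod1KO GFP+ library and 38.5% in Sod1KO GFP-, and without the richest members the ratios were 1.51 and 1.11. Among members with at most 2 capillary genes they were 2.29 (1.17 to 3.66) in GFP+ and 1.33 (-1.34 to 6.72) in GFP-, on 1 WT UMI. Stmn1 was, with Mki67, 1 of 2 cell cycle genes of 4 tested that were higher in both sorts. Cells with at least 2 of the 5 genes Mki67, Top2a, Birc5, Cdk1 and Ccnb1 were 0 of 55, 0 of 92, 5 of 107 and 3 of 146 members, against 1.50%, 1.29%, 4.00% and 4.55% of capillary cells. The 0 of 55 and 0 of 92 allow shares of up to 5.45% and 3.26% (3 cells of the total), which are above the 4.67% and 2.05% of the Sod1KO libraries in each sort, so a difference was not detectable at these numbers.

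Most genes named lower in Sod1KO rested on few cells in the WT GFP+ library, with Klf9 and Camk2n1 as exceptions. In the WT GFP- library the rest of these genes were spread over 13 (Col14a1) to 55 (Igfbp6) of 92 members, except Lyz2, found in 1. Apart from Lyz2, the richest member there held 6.33% (Hbb-bs) to 16.55% (Clec3b) of the UMIs of a gene. Klf9, a glucocorticoid-responsive transcription factor, was at 307, 267, 164 and 136 CPM in 49, 80, 73 and 98 members, with ratios of -0.91 (-1.13 to -0.68) in the GFP+ libraries and -0.97 (-1.21 to -0.73) in the GFP- libraries. Camk2n1, an inhibitor of calcium/calmodulin kinase II, was at 87.5, 80.0, 44.3 and 41.2 CPM in 38, 46, 50 and 50 members with ratios of -0.98 and -0.96. Both were under 2-fold in each sort, and among members with at most 2 capillary genes the ratios were -0.63 and -0.05 for Klf9 and -1.06 and 0.37 for Camk2n1. Neither fall was limited to the venous cells. Klf9 was at 324, 284, 141 and 123 CPM in capillary cells and at 420, 296, 200 and 159 CPM in all cells that were not members. Camk2n1 was at 74.4, 74.0, 60.9 and 48.5 CPM in capillary cells and at 125, 92.2, 85.1 and 80.1 CPM in all cells that were not members. The globin genes Hbb-bt, Hbb-bs and Hba-a1, near-identical within each family, had ratios of -6.31 and -6.75, -3.49 and -7.23 and -4.81 and -8.45, but 1 WT GFP+ member held 99.5% to 99.9% of their UMIs in that library. The doublet caller had not marked that cell, and with doublets removed the GFP+ ratios were -6.19, -3.36 and -4.68. The single member with most UMIs of a gene also held 93.0% of Clec3b and 82.5% of Lyz2, the macrophage lysozyme, in the WT GFP+ library.

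The antigen presentation genes Cd74 and H2-Ab1 had ratios of -1.32 and -4.16 and -1.61 and -3.60, and with H2-Aa they were 3 of 22 interferon and MHC genes lower in both sorts, none being higher. None of the list, 0 of 19 genes, was lower among members with at most 2 capillary genes. The member richest in Cd74 held 91.7% of its UMIs in the WT GFP+ library, and the one richest in H2-Ab1 73.3%. With the richest member left out of each library Cd74 in GFP+ was at a ratio of 1.32, on 13 Sod1KO and 3 WT UMIs, and among members with at most 2 capillary genes it was 1.91 (0.17 to 4.29). Cd74 in the WT GFP+ members was at 32.1 CPM, against 329 CPM in the other cells of that library. Igfbp6 and Col14a1, both fibroblast genes, had ratios of -1.04 and -1.66 and -2.69 and -1.80, and fibroblast genes summed higher in the WT GFP- members than in the other libraries; their part in these ratios was not tested. The ratio of Igfbp6 among members with at most 2 capillary genes was -2.31 in GFP+ but 4.92 (3.05 to 7.97) in GFP-, on 2 WT UMIs. The richest member held 63.2% of Igfbp6 and 87.8% of Col14a1 in the WT GFP+ library, and without the richest members the GFP+ ratio of Igfbp6 was -0.17. Nupr1, a stress-induced chromatin protein, had ratios of -0.86 and -1.05, which among members with at most 2 capillary genes were -2.02 and, against 0 WT UMIs in GFP-, at least 1.30. Without the richest members Nupr1 was 0.35 in GFP+. With the member that had the most UMIs of a gene left out of each library, 1 gene was lower in both sorts in place of 18.

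**Figure D4:**
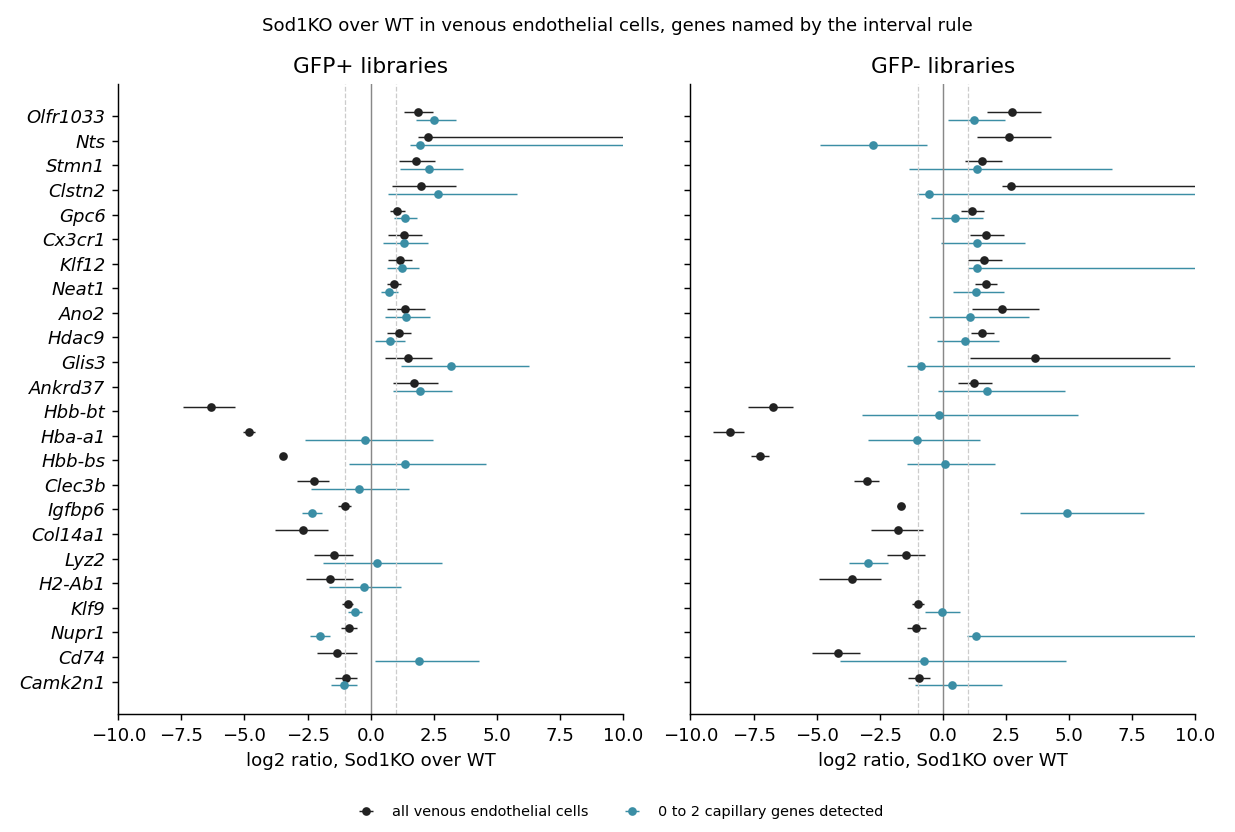
Log2 ratio of Sod1KO over WT levels (horizontal axis) in the GFP+ (left) and GFP- (right) libraries for the 24 genes named by the interval rule, in all venous endothelial cells (black) and in those with 0 to 2 capillary genes detected (blue); bars are 95% conditional binomial intervals, those past the axis end or open are drawn to it, points whose bar is open to the right stand for a lower bound against 0 WT UMIs, genes with too few UMIs have no point, and dashed lines mark 2-fold. Cx3cr1, Olfr1033, Klf12, Neat1, Ano2, Hdac9, Gpc6, Ankrd37 and Stmn1 lie right of 0 in all 4 values, while the blue points of Nts in the GFP- libraries, of Hbb-bs in both sorts and of Igfbp6, Lyz2, Nupr1, Cd74 and Camk2n1 in 1 sort lie on the other side of 0 from the black ones; those of Clstn2 and Glis3 in GFP- are lower bounds below 0.

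Sod1 removes superoxide, and redox genes were read as a list. None of 23 antioxidant genes tested differed past 2-fold in both sorts. Nqo1, the quinone reductase induced by Nrf2, was at 25.9, 22.7, 25.8 and 31.1 CPM, with genotype ratios of -0.01 and 0.45, and was the 1 of 25 antioxidant genes past 2-fold over capillary cells, with ratios of 1.75 to 2.56. Of the adhesion and cytokine genes none passed 2-fold in both sorts: Sele had ratios of -0.64 and -0.53, Icam1 of -0.36 and 0.62 and Il6 of -0.15 and 1.14, the last 2 with opposite signs in the 2 sorts. Among members with at most 2 capillary genes Sele was at 486, 793, 276 and 159 CPM and Selp had genotype ratios of -0.74 and -0.92. The mice of each genotype were pooled before sorting, so the spread between animals is unknown and genotype and library cannot be told apart.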

How the data were processed

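The deposited files held raw UMI counts, which the authors made from droplet (10x) 3′ libraries and deposited as 1 unnormalized gene-by-cell matrix per library. The submitters' processing notes name Cell Ranger 7.1.0, Seurat 4.30 and the build mm10. No ambient RNA correction was applied to these counts here. From them, cells with more than 200 genes and under 10% mitochondrial UMIs were kept, and the marker limits, classes, levels and ratios were computed as described, in Python 3.11.15 with scipy 1.17.1, pandas 2.3.3, scikit-learn 1.9.0, numpy 2.4.6 and, for figures, matplotlib 3.10.9.

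A level of 0 was set to 3 UMIs in ratios, and no ratio was formed where both classes had 3 UMIs or fewer. Genes needed 20 UMIs to be counted, summed over both classes and all 4 libraries for the comparisons with other endothelial cells and in the higher library of each sort for genotype. Library depth was 924649 to 2571083 UMIs over the venous cells. Cells were compared with simulated doublets and the highest scores, at 0.8% per 1000 barcodes, were marked but kept. Genes were named by the interval bound nearest 0 in the least favourable library or sort: 20 higher and 10 lower than capillary, 10 higher than arterial, and 12 in each direction between genotypes, without marker genes of the choice, mitochondrial, ribosomal, Gm42418, Xist or Y-linked genes. Some genes that this rule named are not reported here. Members and gene lists were chosen with earlier results of these data known. The calculation was tested on simulated data. The rule, doublets, depth, count minimum, scaling, averaging, free RNA, other cell types and single cells were varied.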

Additional observations from a re-analysis of the deposited data

Results flagged for a closer look

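In 4 genes of the lists the ratio of Sod1KO over WT in venous endothelial cells had opposite directions, past 2-fold each, in the GFP+ and GFP- libraries; each sort had 1 library per genotype, so the difference between the sorts was not tested. Ccl11, the eosinophil chemokine, had log2 ratios of 1.01 in GFP+ and -1.04 in GFP-, at 99.1, 236, 199 and 115 CPM. Edn1, which encodes endothelin-1, had -1.11 and 1.2, at 36.6, 24.9, 17.0 and 57.2 CPM. Hpgd, the prostaglandin-degrading dehydrogenase, had at least 2.38 in GFP+, where WT members had no UMI, and -2.28 in GFP-, on 0, 21, 27 and 12 UMIs. Unc5b, a netrin receptor of arterial and tip cells, had 1.04 and -2.3, on 7, 23, 25 and 13 UMIs. Among members with at most 2 capillary genes the ratios of Ccl11 were 0.65 and -1.05 and those of Edn1 -1.45 and -0.25. The part of fibroblast transcripts in the ratios of Ccl11 was not tested.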

How the results depend on the processing

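No paired analysis was possible because each group had 1 library. With 2 venous genes enough, the share of venous cells was 1.89, 10.5, 2.38 and 5.75%. It was 2.34% (WT GFP-) and 1.55% (Sod1KO GFP-) with 4 needed. With cells thinned to 5000 UMIs (816, 541, 972 and 724 shallower cells left out) it was 0.835% (WT GFP+) and 1.74% (Sod1KO GFP-). With over 1000 genes and under 5% mitochondrial UMIs it was 1.51%, 2.13% and 3.34% in WT GFP+, Sod1KO GFP+ and Sod1KO GFP-. With at most 2 capillary genes, chosen after seeing the data, it was 0.797, 0.721, 1.30 and 1.12%. For all venous cells over endothelial cells it was 8.79, 6.97, 16.5 and 4.41%.

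The 62 genes higher in Sod1KO became 18 with 50 UMIs needed, 222 with no minimum, 480 with both sorts summed and 2 with members that carried 2 or more genes of another cell type left out, which left 4, 6, 4 and 21 cells. The 18 lower became 5, 98, 182 and 2 under these settings, 11 with 4 venous genes needed, 46 with doublets removed, 1 with the member richest in each gene left out, and 8 with at most 2 capillary genes, of which 1 was shared with the 18. Under that last setting 45 genes were higher, 9 of them shared. Against capillary cells the 246 higher became 511 with at most 2 capillary genes and 381 without the WT GFP- library, and the 155 lower became 260 with 4 venous genes needed and 460 without that library. Against arterial cells the 293 and 299 became 483 and 555 without it. The library was left out after seeing the data. Since a gene had to pass in every library used, leaving out any library tends to raise these counts, and no other was left out for comparison. The cause of these shifts was not tested.

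Ratios of Sod1KO over WT past 2-fold that turned sign were these. With other cell type genes left out, Nts was -0.66 and Hbb-bs 0.17 in GFP-, and Klf12 -1.49 in GFP+. With 4 venous genes needed, Hbb-bt was 1.24, Hba-a1 4.90, Hbb-bs 6.96 and Lyz2 0.50 in GFP+. With the richest member left out, Hbb-bs was 1.32, Lyz2 0.21 and Cd74 1.32 in GFP+. With at most 2 capillary genes, Nts was -2.76, Igfbp6 4.92, Nupr1 at least 1.30 and Hbb-bs 0.10 in GFP-, and Hbb-bs 1.36, Lyz2 0.26 and Cd74 1.91 in GFP+. Of these 17 values, 12 rested on 3 WT or Sod1KO UMIs or fewer. Against 0 WT UMIs the sign was undetermined in 4 other values. Ratios under 2-fold that turned were Nupr1 in GFP+ (0.35 with the richest member left out) and Camk2n1 in GFP- (0.34 with other cell type genes left out, on 2 WT UMIs, and 0.37 with at most 2 capillary genes). Of the other values of named genes, 90 moved by more than their counting interval, the 7 just described among them, and 236 did not. Of shares and gene counts, 43 held and 37 moved, as given above.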

Other observations

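Outside the groups above, venous endothelial cells had more transcripts of several growth factor and matrix genes than capillary cells. Bmp4, a bone morphogenetic protein, was at 159, 134, 112 and 139 CPM, with log2 ratios of 2.79, 1.72, 2.52 and 2.45 over capillary cells and 3.09, 1.71, 2.89 and 2.52 over arterial cells; of 17 genes of the BMP and TGF-beta list it was the 1 higher than in capillary cells and Bmp6 the 1 lower. Vegfc, the lymphangiogenic growth factor, had ratios of 1.06 to 1.96 over capillary cells but -2.50 to -1.72 over arterial cells, and Angpt1, a ligand of Tie2, of 1.21 to 3.28 over capillary cells. Eln, which encodes elastin, was at 259.7, 197, 321 and 298 CPM against 37.5, 36.3, 28.0 and 29.3 CPM in capillary cells, and the proteoglycan Bgn had ratios of 1.06 to 2.64; these were 2 of 21 basement membrane and matrix genes, with Nid2 the 1 lower. The early response genes Nfkbia, the NF-kappaB inhibitor, and Myc were higher than in capillary cells, with ratios of 1.01 to 1.86 and 1.77 to 2.32, while Fos had -0.28 to 0.16.

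Cytl1, a secreted protein used here as an arterial gene, was found in 4 of 55, 7 of 92, 11 of 107 and 9 of 146 venous cells, in 0, 0.772%, 0 and 0.152% of capillary cells and in 22.4%, 34.3%, 22.6% and 5.74% of arterial cells. Prox1, the lymphatic transcription factor that is also known from venous valves, was found in 7, 2, 15 and 9 venous cells, or 12.7%, 2.17%, 14.0% and 6.16%, against 2.40%, 3.60%, 4.33% and 2.63% of capillary cells. Mmrn1, another lymphatic gene, had no UMI in any venous cell. The choice allowed 1 arterial and 1 lymphatic gene per cell, so cells with more of them were left out.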
